A study of Mus musculus with 32 samples.

Results

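The genes described here encode 6 proteins of the small ribosomal subunit, Rps3a1, Rps7, Rps13, Rps15a, Rps24 and Rps26. They are represented by 8 cDNA clones, since Rps24 and Rps26 each have 2, out of 15247 clones with values on the array. The clones were chosen by a readout. All are in the study's list of clones whose heavy polysomal over total RNA ratio differed between 3T3-tTA-eIF4E and 3T3-tTA cells, and the row of each clone was found as the row that holds the difference printed there. The polysomal ratios of the cell lines and their difference are therefore described without a test. Total RNA, which the choice did not use, was tested. The mean polysomal ratio over both lines was also fitted. Its estimate is orthogonal to the difference between the lines as long as the lines vary equally, but the list was made with a statistic that divides the difference by the spread on the same arrays. That spread also sets the standard error of the mean, so its p-values are not independent of the choice and are given as a description.

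3T3-tTA is a mouse NIH 3T3 fibroblast line carrying the tetracycline transactivator. 3T3-tTA-eIF4E is derived from it and expresses eIF4E, the cap-binding subunit of the translation initiation factor eIF4F, when tetracycline is removed from the medium (Tet-off). Each was studied as a single line, so a property of the line cannot be told apart from an effect of eIF4E. The 16 two-colour Mouse 15K3 arrays, each deposited as 2 samples because each clone is spotted in duplicate, form 4 conditions of 4 arrays. In total RNA, cells kept without tetracycline for 5 h were compared with uninduced cells of that line, on arrays T1, T3, T5 and T7 for 3T3-tTA and T9, T11, T13 and T15 for 3T3-tTA-eIF4E. In polysomal RNA, the pooled heavy polysome fractions of cells without tetracycline for 5 h, treated with cycloheximide before lysis, were set against total RNA, on arrays P9, P11, P13 and P15 for 3T3-tTA and P1, P3, P5 and P7 for 3T3-tTA-eIF4E. The sample RNA was labelled with Cy3 on 2 arrays of each condition and with Cy5 on the other 2, and the 4 arrays stand for 2 RNA extractions. An SD below is over these 4 arrays and includes the dye swap.

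Ribosomal protein mRNAs are abundant in growing cells, and their translation is regulated together. In vertebrates they begin with a C followed by a run of pyrimidines, the terminal oligopyrimidine tract, through which growth signals control how much of the mRNA is engaged by ribosomes. In resting cells much of it is held outside polysomes, and on stimulation it moves into them. The ratio of heavy polysomal RNA to total RNA measures this engagement, here called polysome loading. A log2 ratio of 0 is the level of a typical clone on the same array, because the values were normalized within each array, and not an absolute share of the mRNA on polysomes.

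The sequences around the annotated transcription starts are shown because the tract lies there. Each window holds 10 bases before and 20 bases from the start given by RefSeq for GRCm38.p6, so that the annotated start is letter 11, and the longest run of pyrimidines is in capitals where it has at least 5 bases.
Rps15a, chr7:118116128-118116157, minus strand: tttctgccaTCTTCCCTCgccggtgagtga
Rps24, first entry, chr14:24490668-24490697, plus strand: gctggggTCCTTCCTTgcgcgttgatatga
Rps24, second entry, chr14:24490743-24490772, plus strand: cgccgtagccatcatggtgagTCTCCTCgg
Rps26, chr10:128626487-128626516, minus strand: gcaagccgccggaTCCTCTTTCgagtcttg
Rps13, chr7:116334171-116334200, minus strand: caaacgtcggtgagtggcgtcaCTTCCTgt
Rps7, chr12:28635934-28635963, minus strand: cggTTTCCacccacctacttccgctgtccc
Rps3a1, chr3:86142649-86142678, minus strand: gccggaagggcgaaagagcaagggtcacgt
All 6 genes had an entry. A run of at least 5 pyrimidines was in 6 of the 7 entries, against 46.4% of the 32851 promoter entries. A C at the annotated start followed by at least 4 pyrimidines was in 1 entry, that of Rps15a, against 2.51% of all entries. Only the strand of the gene was searched. Where several runs were equally long the first is in capitals. In the first Rps24 entry the run begins 3 bases before the annotated start, and in Rps26 it begins at base 4 with the annotated start as base 1. Which start these cells used was not measured.

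Before the members, the induced gene was examined. In total RNA of 3T3-tTA-eIF4E the 3 Eif4e clones with a row had mean log2 induced/uninduced ratios from 2.75 to 3.79, and in 3T3-tTA from -0.02 to 0.06, and in the former they were above 0 on all 4 arrays in either dye. The sources differ on the reference RNA of the 3T3-tTA-eIF4E polysomal arrays, which was uninduced according to the labels and induced according to the methods. On the 2 of these arrays with scanner values, the Eif4e clones were 35.6 to 146 times background in the total RNA channel, against 2.67 to 8.91 times on the 2 scanned arrays of 3T3-tTA. Their mean log2 polysomal/total ratio was 0.15 to 0.39 in 3T3-tTA-eIF4E and 0.12 to 0.46 in 3T3-tTA, so Eif4e RNA was abundant in this reference too. Of the fibroblast genes with a named clone, the collagen gene Col1a2 was 3.56 to 36.5 times background over both lines. The proteoglycan gene Bgn was 2.38 to 11.4 times and the proteoglycan gene Dcn 0.965 to 6.52 times. In the total RNA channel Dcn was 1.60 and 1.34 times background in 3T3-tTA-eIF4E and 6.52 and 3.85 times in 3T3-tTA. Col1a2 and Bgn were instead higher in 3T3-tTA-eIF4E in this channel. These differences were not tested. Markers of epithelial, blood and endothelial cells were not analysed here. Turned to the same direction, arrays of a line with opposite dyes had correlations across clones from -0.61 to 0.14 in total RNA and from -0.42 to 0.13 in polysomal RNA. Between arrays of one dye orientation the correlation was 0.37 to 0.58 within a line and 0.40 to 0.62 across lines in total RNA, and 0.33 to 0.54 and 0.30 to 0.82 in polysomal RNA, so that arrays resembled each other by dye also across the lines. Ratios were still turned by the dyes that the labels give.

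In cells with eIF4E induced, all 8 Rps clones were above 0 on all 4 arrays, against 12.4% of all clones, and in 3T3-tTA 5 of the 8 were, against 7.72%. Nothing is read from these shares, since the clones were chosen from these values. Their mean log2 ratio in 3T3-tTA-eIF4E was 0.68 to 1.16, with a median of 1.05, which is 1.60-fold to 2.23-fold over a typical clone. In 3T3-tTA the same clones had means of 0.22 to 0.57 with a median of 0.43, or 1.16-fold to 1.48-fold. The median of all clones was 0.03 in either line. These levels put the Rps clones between percentiles 95.7 and 99.6 of all clones in 3T3-tTA-eIF4E, and between percentiles 75.2 and 94.0 in 3T3-tTA. The plot of polysomal ratios by clone shows the values of each array.

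**Figure D1:**
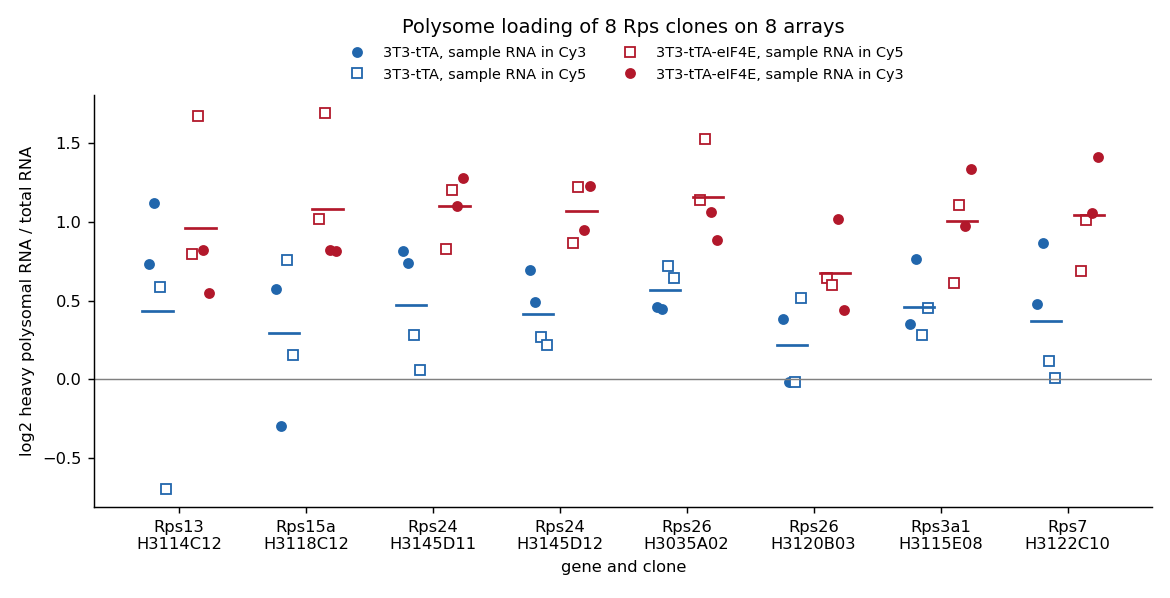
Log2 ratio of heavy polysomal over total RNA (y axis) of the 8 Rps clones (x axis) on the 4 arrays of 3T3-tTA (blue) and the 4 of 3T3-tTA-eIF4E (red), with filled circles where the sample RNA was in Cy3, open squares where it was in Cy5, and a bar at the mean. In 4 clones every 3T3-tTA-eIF4E array lies above every 3T3-tTA array, and the lowest value is that of Rps13 on a 3T3-tTA array, -0.69.

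Rps24 encodes a protein that is needed for maturation of the small subunit rRNA, and its gene is mutated in some patients with Diamond-Blackfan anaemia. Clone H3145D11 had log2 ratios of 0.83, 1.20, 1.10 and 1.28 on P1, P3, P5 and P7 of 3T3-tTA-eIF4E and of 0.82, 0.74, 0.28 and 0.06 on P9, P11, P13 and P15 of 3T3-tTA. Clone H3145D12 had 0.87, 1.22, 0.95 and 1.23 in 3T3-tTA-eIF4E and 0.69, 0.49, 0.27 and 0.22 in 3T3-tTA. In both clones the lines did not overlap, with differences of 0.63 and 0.65, and in 3T3-tTA the Cy3 arrays were the higher ones. The clones were printed in different blocks of the array. Their values differed by 0.05 ± 0.13 (SD, n = 8 arrays) and had a Pearson correlation of 0.956 over the 8 polysomal arrays, which they share.

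Rps26 encodes a protein at the mRNA exit channel of the small subunit that contacts the mRNA. Clone H3035A02 had 1.14, 1.53, 1.07 and 0.89 on P1, P3, P5 and P7 and 0.46, 0.45, 0.72 and 0.65 on P9, P11, P13 and P15. It had the highest mean of the 8 clones in both lines, 1.16 ± 0.27 and 0.57 ± 0.14 (SD, n = 4 arrays each), and the lines did not overlap. Clone H3120B03 had 0.64, 0.60, 1.02 and 0.44 in 3T3-tTA-eIF4E and 0.38, -0.02, -0.02 and 0.52 in 3T3-tTA. It had the lowest mean in both lines, 0.68 ± 0.25 and 0.22 ± 0.28, and the lines overlapped. The first clone was above the second on all 8 polysomal arrays, by 0.42 ± 0.32 (SD, n = 8 arrays). The clones of this gene thus differed more than those of Rps24, and their identity rests on the symbol in the study's list, because the accession listed for both belongs to Ikzf4 in RefSeq. What each clone was printed from was not tested.

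Rps15a encodes a protein that binds the small subunit rRNA early in assembly. It had log2 ratios of 1.02, 1.69, 0.82 and 0.81 on P1, P3, P5 and P7 and of 0.58, -0.30, 0.76 and 0.15 on P9, P11, P13 and P15. All values of 3T3-tTA-eIF4E were above all of 3T3-tTA, and the difference between the means was 0.79 or 1.73-fold. In refits with a single array left out this difference was 0.54, without P15, to 0.90, without P9. The 3T3-tTA values spread widely, with an SD of 0.47. Rps7, whose product also binds the p53 regulator Mdm2, had 0.69, 1.01, 1.05 and 1.41 in 3T3-tTA-eIF4E and 0.48, 0.87, 0.11 and 0.01 in 3T3-tTA. The lines overlapped through P1 and P11, and the difference between the means was 0.67.

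Rps3a1, which encodes a protein of the platform of the small subunit, had 0.61, 1.11, 0.98 and 1.33 on P1, P3, P5 and P7 and 0.35, 0.77, 0.28 and 0.45 on P9, P11, P13 and P15. The difference was 0.55, and the overlap again came from P1 and P11. Rps13 encodes a protein that binds the rRNA and takes part in a bridge to the large subunit. It had 0.80, 1.67, 0.82 and 0.55 in 3T3-tTA-eIF4E and 0.73, 1.12, 0.58 and -0.69 in 3T3-tTA. This clone had the largest spread, with SDs of 0.49 and 0.79 (n = 4 arrays each), and a difference between the lines of 0.52. In refits this difference was 0.022 without P15, 0.11 without P3 and 0.98 without P11. It also moved by over 1.5 times in the refits without P5, P7 or P9. These refits remove a dye term and are not plain means of the remaining arrays. Rps13 was also the dimmest member, from 1.63 to 13.3 times background on the scanned arrays, where the other 7 clones lay between 3.16 and 94.2 times.

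As a family, the 8 clones differed between the lines by 0.46 to 0.79 with a median of 0.61, or 1.38-fold to 1.73-fold, while the median difference of all clones was 0.01. The lines did not overlap in 4 of the 8 clones, against 0.728% of all clones in this direction, a share from which nothing follows since the contrast chose the members. In the order of the means of a line, neighbouring clones differed by less than the SD of either over the 4 arrays, except that in 3T3-tTA-eIF4E Rps26 H3120B03 at 0.68 lay below Rps13 at 0.96 by more than its own SD of 0.25. In the refit without P3 that order was reversed, with Rps13 at 0.54 and Rps26 H3120B03 at 0.64. Over all arrays the smallest difference of a member was that of Rps26 H3120B03 with 0.46, and it was 0.30 in the refit without P11. Which member is last depends on the arrays, since Rps13 was lower without P15. The smallest difference above 0 among the 301 clones of the list that were higher in 3T3-tTA-eIF4E was 0.34. Outside the list, 700 clones had a larger difference than Rps26 H3120B03. Other Rps clones of the array were not analysed here.

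The median of the 8 clones was 0.81, 1.21, 1.00 and 1.06 on P1, P3, P5 and P7, and 0.53, 0.62, 0.28 and 0.18 on P9, P11, P13 and P15. The lines did not overlap in this median, and the median of all clones lay between -0.02 and 0.04 on these arrays. In 3T3-tTA-eIF4E the mean of this median was 1.03 on Cy3 and 1.01 on Cy5 arrays, and in 3T3-tTA 0.57 and 0.23. Single clones differed by dye in opposite directions. In 3T3-tTA-eIF4E Rps13 had 0.69 on Cy3 and 1.23 on Cy5 arrays and Rps15a 0.82 and 1.35, whereas Rps7 had 1.23 and 0.85 and Rps3a1 1.16 and 0.86. The median difference per clone between the lines was 0.54 on Cy3 arrays and 0.80 on Cy5 arrays. On Cy3 arrays Rps13 was lower in 3T3-tTA-eIF4E, by -0.24, and the other 7 clones were higher. The plot of medians by array shows this beside the total RNA arrays.

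**Figure D2:**
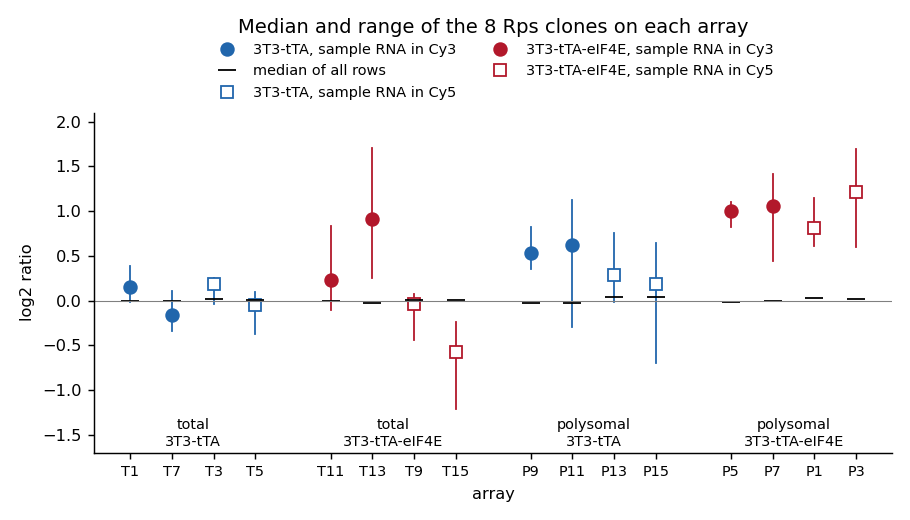
Median of the 8 Rps clones (symbols) and their lowest and highest value (vertical line) on each of the 16 arrays (x axis), as log2 ratios (y axis), in 3T3-tTA (blue) and 3T3-tTA-eIF4E (red), with filled circles for Cy3 and open squares for Cy5 as the dye of the sample RNA and a black dash for the median of all clones. On polysomal arrays the medians of 3T3-tTA-eIF4E lie from 0.81 to 1.21 and those of 3T3-tTA from 0.18 to 0.62, and in total RNA of 3T3-tTA-eIF4E they go from -0.58 on a Cy5 array to 0.91 on a Cy3 array.

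The mean loading over both lines was above 0 in all 8 clones. It ranged from 0.45 (1.36-fold) for Rps26 H3120B03 to 0.86 (1.82-fold) for Rps26 H3035A02, with a median of 0.72, while that of all clones was 0.04. By limma on extraction means, with Benjamini-Hochberg adjustment over all 15247 clones, 4 of the 8 clones passed an adjusted p of 0.1 and 1.3-fold, against 2.13% of all clones, or 1.12% in the direction of higher loading. These were Rps26 H3035A02 (adjusted p = 0.0768), Rps24 H3145D11 (0.79 ± 0.11 SE, adjusted p = 0.0786), Rps24 H3145D12 (0.74 ± 0.11 SE, adjusted p = 0.0867) and Rps3a1 (0.74 ± 0.12 SE, adjusted p = 0.0983). Rps7 missed the threshold with 0.71 ± 0.12 (SE, adjusted p = 0.104). Rps15a had 0.69 ± 0.16 (SE, adjusted p = 0.160) and Rps13 0.70 ± 0.20 (SE, adjusted p = 0.237), with adjusted p for Rps26 H3120B03 of 0.260. The unadjusted p was under 0.05 for all 8, against 14.4% of all clones. Nothing is read from these counts beside the shares of all clones, because the spread behind the p-values took part in the choice. With all arrays as replicates, with total and polysomal arrays in one fit, or among spots above background alone, limma called all 8. It called none of them with the extractions paired between the lines as a block, a fit that called 0 of all clones. Without array P7, P9 or P11, on Cy5 arrays alone, or at an adjusted p of 0.05 it also called none of the 8. Of all clones it called 147 without P7, 64 without P9, 76 without P11 and 60 on Cy5 arrays alone. Leaving out 1 extraction leaves 1 in a line, so calls of those fits are not given. Without P3 it called 1, and without P15 it called 6. Of all clones 324 were called, and 1708, 1619 and 980 in the 3 settings that called all 8, 214 without P3 and 715 without P15.

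**Figure D3:**
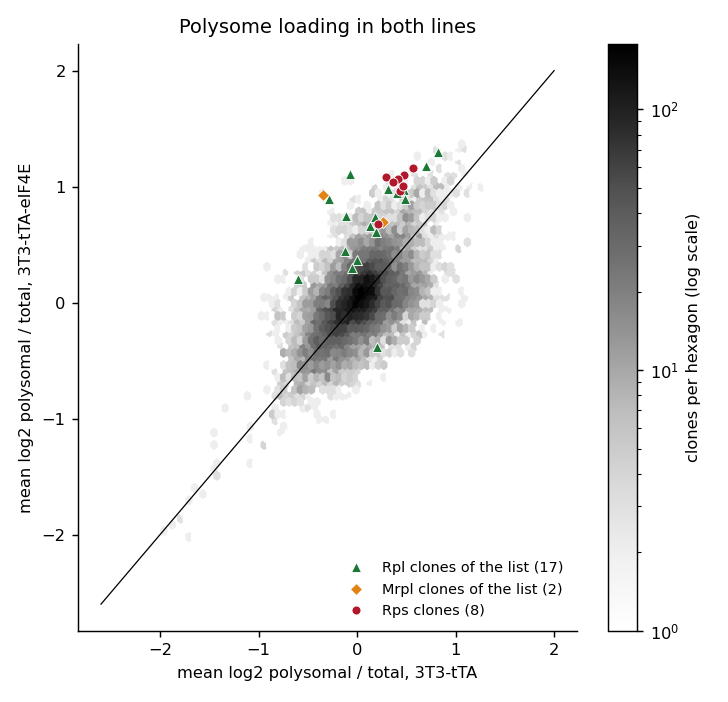
Mean log2 polysomal over total ratio in 3T3-tTA-eIF4E (y axis) against 3T3-tTA (x axis) for all 15247 clones (grey hexagons, darker where more clones lie, log scale), the 8 Rps clones (red circles), the 17 Rpl clones (green triangles) and the 2 Mrpl clones (orange diamonds) of the list, with the line of equal values. The Rps clones lie together to the right of 0 and above the line, at 0.22 to 0.57 in 3T3-tTA and 0.68 to 1.16 in 3T3-tTA-eIF4E.

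The Rps clones were bright. Their percentile of foreground intensity, averaged over both dyes of the 4 scanned arrays, was 53.1 for Rps13 and 76.6 to 96.6 for the others, and 6 of the 8 lay in the 2 brightest deciles of all clones. In these deciles the median loading of all clones over both lines was 0.0062 and 0.050, and the shares of clones called as higher were 4% and 0.525%. Across clones, which are not independent replicates, brightness and mean loading had a Pearson correlation of -0.085 (n = 15247). With the background corrected by normexp in place of no correction, the 4 scanned arrays gave a median loading of 1.19 in 3T3-tTA-eIF4E and 0.37 in 3T3-tTA. Without this correction the same arrays gave 1.22 and 0.38. Of single clones, the difference of Rps3a1 between the lines was 0.38 with normexp and 0.61 without it, and the ratio of Rps13 in 3T3-tTA was 0.058 and 0.21.

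**Figure D4:**
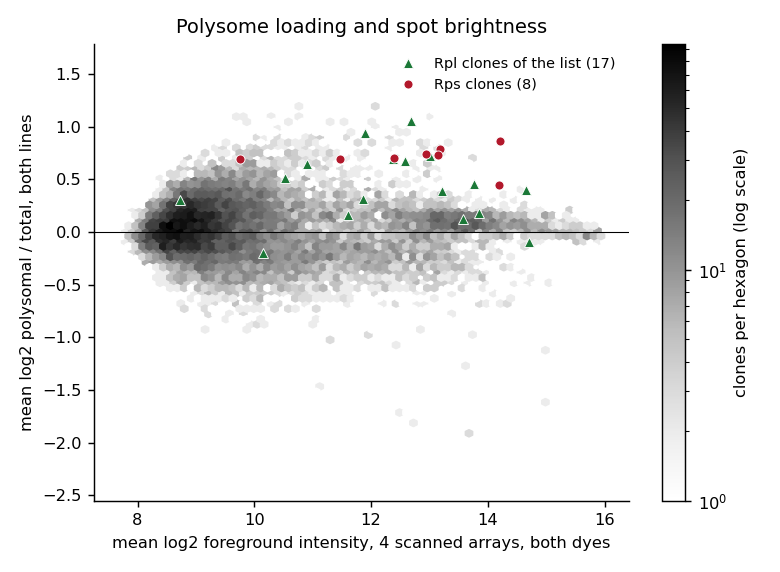
Mean log2 polysomal over total ratio over both lines (y axis) against the mean log2 foreground intensity of both dyes on the 4 scanned arrays (x axis), for all clones (grey hexagons, log scale), the 8 Rps clones (red circles) and the 17 Rpl clones of the list (green triangles). The Rps clones lie between 0.45 and 0.86 on the y axis and between percentiles 53.1 and 96.6 in brightness.

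The total RNA of the same genes showed no change that passed the test. Over the 4 arrays of 3T3-tTA-eIF4E the mean log2 induced/uninduced ratio of the 8 clones lay between -0.06 and 0.26 with a median of 0.12, and in 3T3-tTA between -0.02 and 0.13 with a median of 0.04. For all clones the medians were -0.01 and -0.004. The median of the 8 clones in 3T3-tTA-eIF4E was -0.03 without T11, -0.09 without T13 and 0.32 without T15. In 3T3-tTA the refits gave 0.09 without T1, -0.11 without T3, -0.06 without T5 and 0.22 without T7. RNA was taken from whole cultures, in which fewer cells with a transcript and less of it per cell cannot be told apart. The individual values of 3T3-tTA-eIF4E were far apart, in a pattern that the 8 clones shared.

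Rps7 had log2 ratios of -0.29, 0.83, 1.39 and -1.21 on T9, T11, T13 and T15 of 3T3-tTA-eIF4E and of 0.39, 0.13, -0.37 and -0.19 on T1, T3, T5 and T7 of 3T3-tTA. Rps3a1 had -0.45, 0.23, 1.71 and -0.46 in 3T3-tTA-eIF4E and 0.29, -0.04, -0.08 and 0.11 in 3T3-tTA. In 3T3-tTA-eIF4E both were above 0 on the Cy3 arrays T11 and T13 and below 0 on the Cy5 arrays T9 and T15. In 3T3-tTA the values of Rps7 had the largest SD of the 8 clones, 0.34. Rps13 had -0.09, 0.29, 1.04 and -1.14 in 3T3-tTA-eIF4E and 0.30, 0.18, 0.01 and -0.34 in 3T3-tTA. Rps15a had 0.07, 0.02, 0.37 and -0.70 in 3T3-tTA-eIF4E and -0.02, 0.25, -0.07 and -0.25 in 3T3-tTA. In these clones too T13 was the highest and T15 the lowest of the line.

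Rps26 H3035A02 had 0.01, 0.52, 1.08 and -0.94 on T9, T11, T13 and T15 and 0.17, 0.20, -0.13 and -0.22 on T1, T3, T5 and T7. Rps26 H3120B03 had 0.08, 0.24, 0.25 and -0.27 in 3T3-tTA-eIF4E and 0.04, 0.24, 0.02 and -0.07 in 3T3-tTA. The second clone had the smallest SD in 3T3-tTA-eIF4E, 0.24, where the other 7 had 0.43 to 1.16. Rps24 H3145D11 had -0.00068, 0.14, 0.78 and -0.23 in 3T3-tTA-eIF4E and 0.12, 0.22, 0.09 and 0.08 in 3T3-tTA. Rps24 H3145D12 had -0.07, -0.10, 0.75 and -0.34 in 3T3-tTA-eIF4E and 0.14, 0.18, -0.03 and -0.13 in 3T3-tTA. T13 and T15 were the extremes here as well, and the lines overlapped in all 8 clones.

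**Figure D5:**
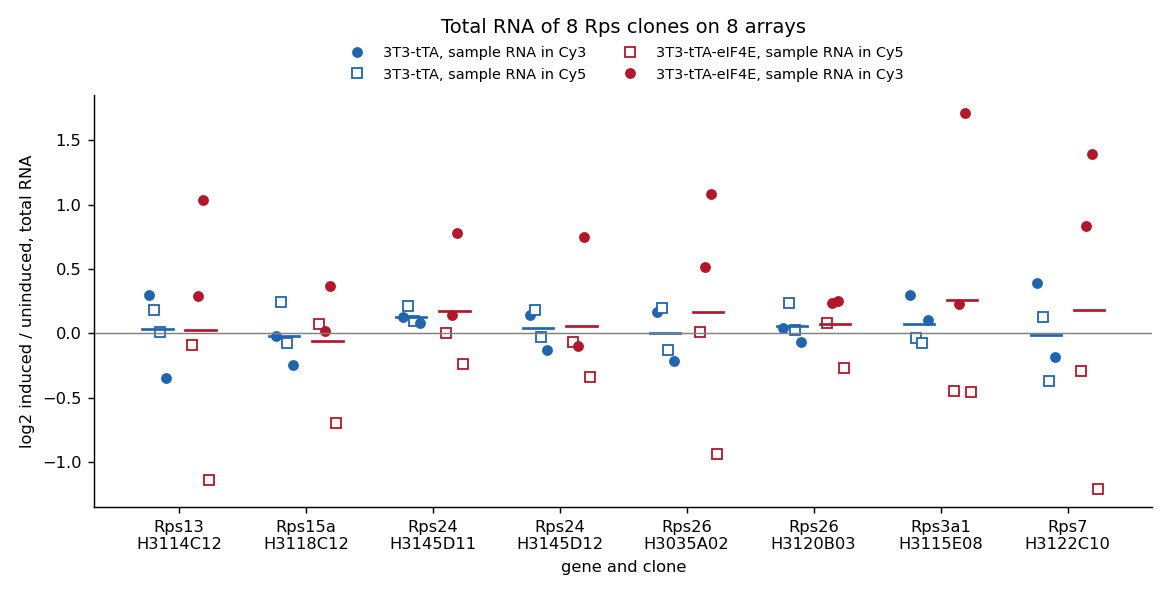
Log2 ratio of induced over uninduced total RNA (y axis) of the 8 Rps clones (x axis) on the 4 arrays of 3T3-tTA (blue) and the 4 of 3T3-tTA-eIF4E (red), with filled circles where the induced RNA was in Cy3, open squares where it was in Cy5, and a bar at the mean. The red circles reach 1.71 and the red squares -1.21, while the means stay between -0.06 and 0.26 and the blue symbols between -0.37 and 0.39.

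In 3T3-tTA-eIF4E the mean of the 2 Cy3 arrays was above 0 in all 8 clones, with a median of 0.56, and the mean of the 2 Cy5 arrays was below 0 in all 8, with a median of -0.38. The difference between the lines accordingly changed its direction with the dye, with a median of 0.52 on Cy3 arrays and -0.40 on Cy5 arrays. T13 also had the widest values of all clones in total RNA, with an SD of 0.55, where the other 7 arrays had 0.26 to 0.37. The part of the dye and of T13 in these values was not tested. The correlations among the 8 clones over the 8 total RNA arrays, as a description, were 0.55 to 0.98 (median 0.88), and over the 8 polysomal arrays -0.0025 to 0.96 (median 0.55). Duplicate spots of these clones differed by a median of 0.088, against 0.126 for all clones.

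By limma on extraction means, 0 of the 8 clones passed the thresholds in total RNA of 3T3-tTA-eIF4E, against 0.0131% of all clones, and 0 were called in 3T3-tTA and in the difference between the lines, where 0% of all clones were called. None of the 8 had an unadjusted p under 0.05 in any of the 3 comparisons, against 3.31%, 4.16% and 0.446% of all clones. The smallest adjusted p among them was 0.963 in 3T3-tTA-eIF4E, 0.901 in 3T3-tTA and 1.00 in the difference. For the difference, SAM on duplicate spots called 0 of the 8 under each of 4 pairings of arrays and 27 to 49 of all clones. The difference between the lines was -0.04 for Rps15a at the lowest and 0.19 ± 0.31 (SE) for Rps7 at the highest, with a median of 0.03. In refits with 1 array left out this median lay between -0.12, without T13, and 0.17, without T15. It was also below 0 without T1 or T7. The 95% interval of the difference was narrowest for Rps26 H3120B03, from -0.31 to 0.34, and widest for Rps13, from -0.85 to 0.83.

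Among the other genes of the ribosome in the list are 17 Rpl clones, of 13 genes of the large subunit, and the 2 Mrpl clones, Mrpl13 and Mrpl18, of the mitochondrial ribosome. All were chosen by the same contrast. The mean loading of the Rpl clones over both lines had a median of 0.40, against 0.72 for the Rps clones, and ranged from -0.20 for Rpl7a H3144G03 to 1.06 for Rpl13 H3111G11. The test called 2 of the 17 as higher, Rpl13 H3111G11 and Rpl35 H3117C06, and 0 of the 2 Mrpl clones, at 0.48 for Mrpl13 and 0.29 for Mrpl18, against 1.12% of all clones and 2.75% of the clones in the list. The p-values rest on the arrays that chose these clones too, so nothing is read from the counts. The difference between the Rps and the Rpl clones was not tested. The Rpl clones differed between the lines by -0.59 for Rpl3 H3122F09 to 1.18 for Rpl15 H3087E03, with a median of 0.53. Rpl15 H3087E03 was dim, at 1.01 to 2.72 times background on the scanned arrays, so that its values carry little signal. In total RNA 0 of the 17 and 0 of the 2 were called in each of the 3 comparisons. The means of the Rpl clones in 3T3-tTA-eIF4E went from -0.18 for Rpl39 H3106G02 to 0.33 for Rpl7a H3144G03, and in 3T3-tTA from -0.11 for Rpl12 H3113D04 to 0.22 for the dim Rpl15 H3087E03. Those of Mrpl13 and Mrpl18 were -0.08 and -0.02 in 3T3-tTA-eIF4E.

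A value above 0 on all 8 polysomal arrays was found in 5 of the 8 Rps clones, against 4.22% of all clones, and in 5 of the 17 Rpl clones. The choice used these arrays, so nothing is read from this share. Those of the Rps clones were Rps24 H3145D11, Rps24 H3145D12, Rps26 H3035A02, Rps3a1 and Rps7. The clones whose profile over the 16 arrays was most like the mean of the 8 Rps clones, after removal of a dye term, were H3127H03, listed as 1100001I22Rik, with a Pearson correlation of 0.978, H3013C09, which has no gene name here, with 0.977, Rbx1 H3030F02 with 0.957, Rpl13 H3111G11 with 0.954 and Rpl35 H3117C06 with 0.953. Of these, 4 are in the list and share its choice by the polysomal contrast, and all share the arrays. The 8 members had correlations of 0.770 to 0.980 with their own mean, lowest for Rps26 H3120B03.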

How the data were processed

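Per the labels and the study's methods, the authors hybridized 16 two-colour Mouse 15K3 cDNA arrays, normalized each array on its own with the lowess of limma (version not given in the sources used here), subtracting no background, and deposited log2 ratios of Cy3 over Cy5 for each of 2 duplicate spots as 32 samples. For arrays P3, P7, P11 and P15 they also deposited scanner files with foreground and background intensity. The normalization sets the typical clone to 0, so a shift of all mRNAs cannot be seen. Direction was taken from the dyes in the labels; the scanner values show Cy3 over Cy5 on these 4 arrays, and the others were taken to run alike.

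The row names of the table did not belong to the values. The row of each clone was the one holding, to 6 significant digits, the difference between the lines printed in the study's lists, and for all 8 members this row matched the spots at the clone's printed place. cDNA spots do not separate a gene from its processed pseudogenes. The members and the gene lists were chosen with earlier results of these data known.

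Duplicate spots were averaged, and arrays of an extraction, 1 in each dye, were averaged to 1 replicate. Which arrays share an extraction is not given in the sources used here, so limma 3.58.1 (R 4.3.3) was run under all 4 assignments, the largest p per clone was kept, and p-values were adjusted by Benjamini-Hochberg over all clones. Calls needed an adjusted p under 0.1 and 1.3-fold. In refits with 1 array left out, a dye term fitted over both lines was first removed from the remaining arrays. The unpaired array then counted as a full extraction, and the assignment with the largest p gave the estimate. The 2 extractions per condition limit the precision, and nothing states that they came from separate cultures. Spots above background had foreground at least 1.5 times background in both channels on all 4 scanned arrays. The code was tested on simulated data with known changes. Named were the 8 members, Eif4e, the fibroblast markers with a clone, the highest and lowest Rpl and Mrpl clones and the 5 most similar clones. Clones of the Rps genes outside the list and amino acid sequences were not used here. Alternatives are listed in the closing section.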

Additional observations from a re-analysis of the deposited data

How the results depend on the processing

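In refits with arrays or extractions left out, the median polysomal difference of the 8 Rps clones between the lines was 0.48 to 0.76. The choice of the clones largely fixed this direction. Some values of single clones changed sign. The difference of Rps13 was -0.24 on Cy3 arrays alone and 0.022 to 0.98 with arrays or extractions left out (that of Rps15a 0.42 to 1.16, of Rps26 H3120B03 0.23 to 0.69 and of Rps3a1 0.33 to 0.76), and its ratio in 3T3-tTA was -0.055 on Cy5 arrays alone and -0.022 to 0.94 with arrays or extractions left out. The ratio of Rps15a in 3T3-tTA was -0.0093 with normexp and -0.074 without it on the 4 scanned arrays, a comparison added after seeing the data, and -0.07 to 0.67 with arrays or extractions left out. That of Rps26 H3120B03 in 3T3-tTA was -0.017 to 0.45 with arrays or extractions left out. The number of Rps clones called for mean loading was 4. It was 8 with arrays as replicates, with all arrays in one fit and for spots above background. With either duplicate spot alone or with clones averaged per gene (of 6 genes) it was 2. It was 0 with the extractions paired (replicate block), on Cy5 arrays alone and at an adjusted p of 0.05. With 1 array left out it was 0 to 6. Of all clones 324 were called, and 980 of 6615 tested for spots above background. Arrays scaled to one spread gave 856, Cy3 arrays alone 2910 and Cy5 arrays alone 60. How many of the 8 Rps clones were called in the scaled and Cy3 settings is not given here. The first duplicate spot alone gave 239, the second 187, clones averaged per gene 320 of 15245 and the extractions paired 0. The cause was not tested. In total RNA, 1 clone was called on Cy5 arrays alone, Rps3a1, at -0.45 in 3T3-tTA-eIF4E, where all 8 clones were below 0 on these arrays, a setting that called 1060 of all 15247 clones, 662 of them below 0. The other alternatives called 0 of the 8. With arrays or extractions left out, the median of the 8 was -0.20 to 0.43 in 3T3-tTA-eIF4E, -0.12 to 0.22 in 3T3-tTA and -0.20 to 0.37 for the difference. Total RNA values that no fit called changed sign in several alternatives. In the difference between the lines, 6 of 8 did on Cy5 arrays and 2 of 8 on Cy3 arrays. The extractions behind each array are not given, so the block was run under every pairing and the largest p kept. Taking the row of a clone from its printed place gave the same 8 rows. Rps13 had the lowest signal of the 8, from 1.63 to 13.3 times background, and what this does to its values was not tested.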
